A study of Mus musculus with 12 samples.

Results

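The sequences described here are the heavy chain transcripts called in frame, with nearly complete V segments, from the 4 primary VQ myeloma lines, which are VQ-D1 and VQ-D2 together with VQ-D4 and VQ-D5. A sequence was a member if the deposited alignment called it productive and held at least 250 bases of V, and identical sequences were counted once. There were 1336 members among 47897 distinct aligned heavy chain sequences in the series: 95 for VQ-D1, 74 for VQ-D2, 14 for VQ-D4 and 1153 for VQ-D5. The 14 of VQ-D4 are under 20, too few to describe haplotypes or to rest a share on. Its values are printed beside the others and enter the means over the lines, which are therefore also given without it. A pair of cell lines derived from VQ-D2, 4935 and 4938, had 0 and 1 such sequences and are not described further.

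The cells were CD138+ B220- myeloma cells from bone marrow of mice carrying Vκ*MYC, a MYC transgene driven by kappa gene control elements, together with NrasLSL Q61R/+, an inducible activated Nras allele, and IgG1-Cre, a Cre recombinase expressed from the IgG1 locus. All 4 lines share these alleles, and there is no group without them. Each line is 1 donor line with 1 heavy chain library, so there are no replicates within a line and the lines are the only replicates. Genotype, cell markers and other cell types cannot be checked in libraries that hold immunoglobulin transcripts alone.

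An antibody heavy chain V segment alternates framework regions (FWR1 to FWR3), which build the fold of the domain, with complementarity-determining regions (CDR1 and CDR2), which form loops that contact antigen. CDR3 spans the V, D and J junction. In germinal centres, activation-induced deaminase introduces point mutations into V, and cells are selected on the receptor they then make. Replacement substitutions alter an amino acid and silent ones do not. Transitions exchange a purine for a purine or a pyrimidine for a pyrimidine, and transversions exchange one kind for the other. Plasma cells have left this process, and the myeloma cells that arise from them usually carry a fixed set of V mutations.

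The consensus of each line is shown first, because the haplotypes below are described against its fixed substitutions. The germline bases are those of the allele named in the deposited alignment, and the V genes of these mice were not analysed here, so a germline polymorphism cannot be told apart from a fixed somatic mutation. Positions are counted from 1 at the first base of the germline V allele that the deposited alignment names. Capitals mark substituted bases that at least 90% of members covering the position carried, and 10 bases at each alignment end of each member were left out. The runs cover positions 11 to 284 for VQ-D1, 11 to 283 for VQ-D2, 58 to 294 for VQ-D4 and 11 to 282 for VQ-D5.
VQ-D1, IGHV3-2*02: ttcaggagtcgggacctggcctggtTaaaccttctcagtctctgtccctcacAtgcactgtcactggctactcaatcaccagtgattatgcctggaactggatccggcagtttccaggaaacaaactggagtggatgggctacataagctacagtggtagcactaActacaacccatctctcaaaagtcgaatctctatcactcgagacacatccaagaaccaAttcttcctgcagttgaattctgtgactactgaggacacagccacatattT
VQ-D2, IGHV4-1*01: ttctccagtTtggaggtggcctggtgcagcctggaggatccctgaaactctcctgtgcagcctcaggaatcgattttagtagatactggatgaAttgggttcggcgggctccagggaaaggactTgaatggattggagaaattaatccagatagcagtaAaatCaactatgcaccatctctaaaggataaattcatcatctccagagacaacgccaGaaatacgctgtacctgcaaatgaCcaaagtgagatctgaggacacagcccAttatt
VQ-D4, IGHV7-3*01: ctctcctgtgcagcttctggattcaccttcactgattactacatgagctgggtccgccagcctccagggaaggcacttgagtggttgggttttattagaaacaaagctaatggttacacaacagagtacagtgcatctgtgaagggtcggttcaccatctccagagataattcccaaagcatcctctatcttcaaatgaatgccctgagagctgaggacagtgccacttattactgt
VQ-D5, IGHV3-8*02: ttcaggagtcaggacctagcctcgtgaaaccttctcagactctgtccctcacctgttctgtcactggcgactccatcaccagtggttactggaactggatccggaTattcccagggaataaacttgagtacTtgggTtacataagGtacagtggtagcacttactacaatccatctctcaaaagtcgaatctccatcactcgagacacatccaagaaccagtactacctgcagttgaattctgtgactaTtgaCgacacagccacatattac

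These V genes lie on chromosome 12 in mm10, within the heavy chain locus. Ighv4-1 (VQ-D2) runs from 113948284 to 113948577 and Ighv3-2 (VQ-D1) from 114033803 to 114034097. Ighv7-3 (VQ-D4) runs from 114153180 to 114153644 and Ighv3-8 (VQ-D5) from 114322376 to 114322666. In RefSeq both Ighv3-2 and Ighv7-3 have the biotype of a pseudogene, while the members assigned to them here were called in frame.

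Each line was a single V family. All members of VQ-D1, VQ-D2 and VQ-D4 were called IGHV3-2*02, IGHV4-1*01 and IGHV7-3*01, and 99.9% of those of VQ-D5 were called IGHV3-8*02. The most frequent D call was IGHD2-4*01 tied with IGHD2-9*02 in VQ-D1 (92.6% of members), and IGHD1-1*01 in VQ-D2 (95.9%), VQ-D4 (92.9%) and VQ-D5 (92.6%). IGHD1-3*01 took 3.16% of VQ-D1, and IGHD1-1*02 tied with IGHD1-3*01 took 3.64% and IGHD2-14*01 1.91% of VQ-D5. The J calls were IGHJ2*01 in 81.1% of VQ-D1, IGHJ1*03 in 87.8% of VQ-D2, IGHJ4*01 in all members of VQ-D4 and IGHJ1*01, alone, in 55.9% of VQ-D5. No member sequence was found in more than 1 line.

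The leading CDR3 was carried by 73 of 95 members for VQ-D1 (76.8%), 63 of 74 for VQ-D2 (85.1%), 13 of 14 for VQ-D4 (92.9%) and 636 of 1153 for VQ-D5 (55.2%). VQ-D5 had 116 distinct CDR3 strings, of which the second most frequent, of 35 bases, was on 103 members.
VQ-D1: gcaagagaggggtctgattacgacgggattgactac
VQ-D2: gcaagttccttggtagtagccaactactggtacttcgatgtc
VQ-D4: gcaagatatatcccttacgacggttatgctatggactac
VQ-D5: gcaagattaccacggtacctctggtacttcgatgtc
VQ-D5, second: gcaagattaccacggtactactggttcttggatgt
The CDR3 of 35 bases is not a multiple of 3, although the deposited alignment calls V and J of all 1336 members in frame. Such lengths were found on 243 of 1153 members of VQ-D5 (21.1%), on 1 of VQ-D2 and on 0 of the other lines, and 5, 2, 0 and 2 members of VQ-D1, VQ-D2, VQ-D4 and then VQ-D5 had no CDR3. With the leading CDR3 alone, the number of fixed substitutions was the same in every line.
Among members with the most frequent J call of their line, no J position carried a substitution on at least 50% of members, in 42 to 53 positions examined per line.

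V identity to the germline allele averaged 97.9% ± 1.33 (SD over 95 members) for VQ-D1, 96.1% ± 0.934 (74 members) for VQ-D2, 98.8% ± 2.78 (14 members) for VQ-D4 and 96.9% ± 1.09 (1153 members) for VQ-D5. These SDs are over sequences of 1 library and are not an error of the line. Just below the length limit, at 240 to 249 V bases, productive sequences numbered 38 in VQ-D1, 18 in VQ-D2 and 34 in VQ-D5 and 0 in VQ-D4, with mean identities of 98.3%, 96.3% and 96.5% in the first 3. Just above it, at 250 to 259, the same lines had 15, 10, 11 and 11, with mean identities of 97.2%, 96.7%, 97.3% and 99.5%.

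Before any comparison, the way the sequences start has to be stated. At least 30 assembled bases lay ahead of the aligned V start in 77 of 95 members of VQ-D1, 45 of 74 of VQ-D2, 12 of 14 of VQ-D4 and 665 of 1153 of VQ-D5. In 77, 44, 12 and 602 of these, the stretch held a 15-base word that is the reverse complement of the member's own sequence from the V start onward. Such a member holds part of its transcript in both directions, and its V alignment begins after the stretch. In VQ-D5 the stretch was present on 592 of the 636 members with the leading CDR3 and on 0 of the 103 with the second.

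Fixed substitutions were those on at least 50% of the members covering a position, with at least 5 members covering it. There were 5 for VQ-D1, 10 for VQ-D2, 0 for VQ-D4 and 6 for VQ-D5, and no substitution at the same position and base was fixed in more than 1 line. With 0 of 237 positions fixed, VQ-D4 allows up to 1.27% of positions by a limit of 3 counts (exact upper bound 1.54%).

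In VQ-D1 all 5 fixed substitutions lay in framework. The silent G36T, at codon 12, was on 63 of 63 covering members, and the silent C63A, at codon 21, on 94 of 95. In FWR3, G176A changed serine to asparagine at codon 59 on 95 of 95, the silent G234A was on 95 of 95, and A284T changed tyrosine to phenylalanine at codon 95 on 92 of 92. CDR1 and CDR2 held none in 48 positions, which allows up to 6.25% of them by the same limit (exact upper bound 7.40%). The consensus differed from IGHV3-2*02 at 5 of 274 positions. It differed at 17 of 266 from IGHV3-1*02, an allele of a different V gene named in the alignments. No other allele of IGHV3-2 was compared. Of the fixed bases only G176A equalled the IGHV3-1*02 base.

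In VQ-D2, 7 fixed substitutions lay between positions 104 and 278 and stood on nearly every member. In FWR2, G104A changed serine to asparagine at codon 35 on 74 of 74 members, and A135T was silent on 74 of 74. In CDR2, C170A changed threonine to lysine at codon 57 on 74 of 74, and A174C in the next codon was silent on 74 of 74. In FWR3, A227G changed lysine to arginine at codon 76 on 74 of 74, G251C serine to threonine at codon 84 on 73 of 74, and T278A leucine to histidine at codon 93 on 72 of 72. None of the fixed bases equalled IGHV4-1*02, where 4 could be compared.

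The other 3 fixed substitutions of VQ-D2 lay at its 5′ end, where G25T and G29A went together and C20T did not occur with them. C20T, serine to phenylalanine at codon 7, was on 13 of 13 covering members after the ends were left out. G25T was on 17 of 31, and G29A on 17 of 33. With the ends kept, all 3 fell below 50%, to 48.5% for C20T, 45.8% for G25T and 37.3% for G29A. Other substitutions, not named here, then passed 50%, and VQ-D2 had 12 fixed substitutions in all. On the same count, 22 members carried both G25T and G29A and all 22 had the upstream stretch, against 9 of the 26 members with the germline bases at both. C20T was on 16 of the 16 members with germline bases at 25 and 29 that reached position 20, and on 0 of the 17 carriers that did. The germline C was also on 0 of these 17 carriers, which had other bases there. The 24 bases ending at position 29 were the same in 17 of the 22 carriers. Set against the germline without gaps, they differed at 14 of 24, counting bases ahead of the V alignment, which started at position 14 or later. The reverse complement of these bases also occurred in 5 other sequences among the 19665 distinct ones of VQ-D2. All 5 held it outside the V alignment, which was nearly fixed in advance because that alignment runs in the V direction. Whether G25T and G29A are mutations of V was not tested. At a threshold of 90% of members G25T and G29A dropped out, leaving 8 fixed substitutions. The 2 most frequent stretches of VQ-D2 from position 24 to 45 are shown for this difference, with capitals at bases that differ from the germline; the first was on 22 of 44 members and the second on 20.
VQ-D2, first: aggtggcctggtgcagcctgga
VQ-D2, second: aTgtgAcctggtgcagcctgga

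In VQ-D5 the 6 fixed substitutions were each on over 99% of members. In FWR2, A116T changed lysine to isoleucine at codon 39 on 1150 of 1153 members, A142T methionine to leucine at codon 48 on 1151 of 1153, and G147T was silent on 1150 of 1151. The only one in a CDR, C156G, changed serine to arginine at codon 52 in CDR2 on 1152 of 1153. In FWR3, C260T changed threonine to isoleucine at codon 87 on 1150 of 1150, and G264C glutamate to aspartate at the next codon on 1149 of 1150. None of the 3 that could be compared equalled IGHV3-8*01.

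**Figure D1:**
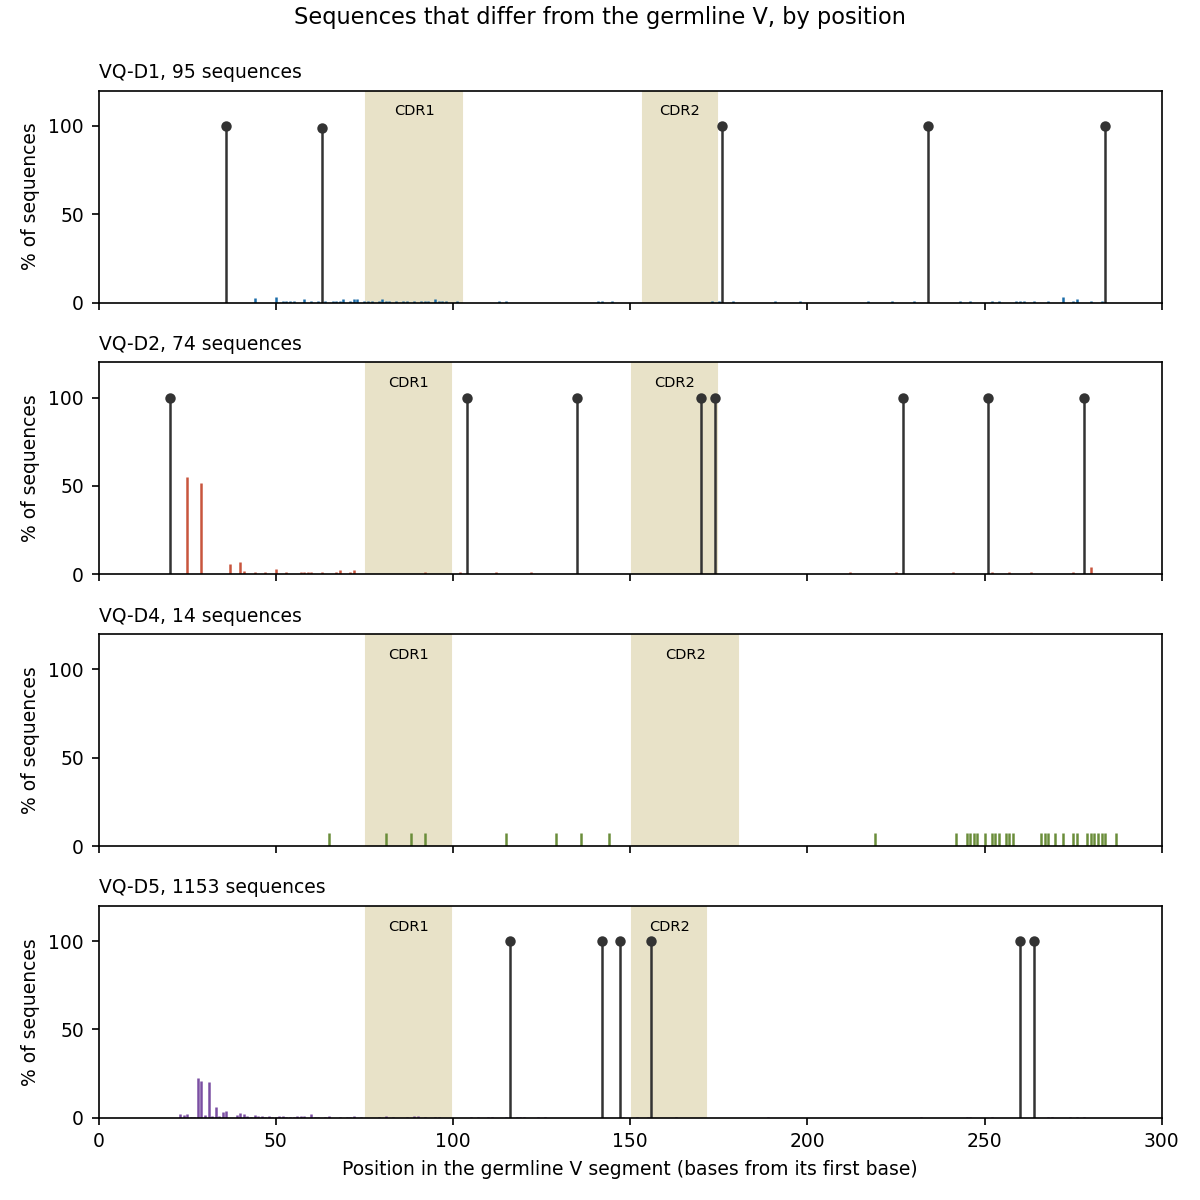
Percent of members that differ from the germline V allele (vertical axis) at each V position (horizontal axis, bases from the first base of V), one panel per line, with CDR1 and CDR2 shaded. Dark lines with dots are substitutions on at least 90% of members; VQ-D4 with 14 members has none, VQ-D2 has partly carried substitutions at positions 25 and 29, and VQ-D5 has a cluster near position 30.

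Over the 3 lines with any, 18 of the 21 fixed substitutions lay in framework and 3 in CDR2, and CDR1 held none. Without G25T and G29A it was 16 of 19 in framework. Per 100 positions, framework carried 2.21 for VQ-D1, 3.56 for VQ-D2, 0 for VQ-D4 and 2.20 for VQ-D5, and the CDRs 0, 4.17, 0 and 2.22. The CDR minus framework difference was -2.21, 0.61, 0 and 0.02 per 100 positions, with a mean of -0.40 ± 1.24 (SD, n = 4 lines). An exact two-sided sign-flip permutation test over the lines gave p = 1 (adjusted p = 1 over the 5 tests, Benjamini-Hochberg). With 4 lines there are 16 sign choices and no p below 0.13 is possible. Leaving out VQ-D1 turned the mean to 0.21, leaving out VQ-D2 gave -0.73 and leaving out VQ-D4 gave -0.53. With 45 to 54 CDR positions per line, a single substitution moves the CDR value by about 2 per 100, so no preference for either region was detectable.

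By effect, 15 of the 21 fixed substitutions replaced an amino acid and 6 were silent. Replacements were 2 of 5 in VQ-D1 (40%, exact Clopper-Pearson 95% interval 5.27% to 85.3%), 8 of 10 in VQ-D2 (80%, 44.4% to 97.5%) and 5 of 6 in VQ-D5 (83.3%, 35.9% to 99.6%). By kind, 7 were transitions and 14 transversions: 2 of 5 transitions in VQ-D1, 4 of 10 in VQ-D2 and 1 of 6 in VQ-D5. All 3 fixed substitutions in CDR2 were transversions. At the 90% threshold the counts were 13 replacements to 6 silent and 6 transitions to 13 transversions. These intervals overlap widely and cover counting error only, and shares of 5 to 10 substitutions are too few to set lines apart.

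The substitutions on at least 90% of members, from position 30 on, occurred together. In VQ-D1, 60 of 60 members that covered all 5 carried all 5. In VQ-D2, 71 of 72 members that covered the 7 from position 30 onward carried all 7, and the other lacked G251C. In VQ-D5, 1142 of 1148 members carried all 6 and the other 6 lacked a single one each. Of these 6, 3 lacked A116T and 1 each lacked G147T, C156G and G264C; 3 of the 6 had the germline base there, 2 at position 116 and 1 at position 156. No member of the 3 lines lacked 2 or more of these sets. Joint haplotypes of VQ-D2 that include the 5′ positions rest on 13 members, which is too few.

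Below 50% the lines carried substitutions at low and unequal frequency. Their number was 75 in VQ-D1 over 24235 V bases (3.09 per 1000), 39 in VQ-D2 over 18716 (2.08 per 1000), 38 in VQ-D4 over 3370 (11.3 per 1000) and 1483 in VQ-D5 over 296253 (5.01 per 1000). These counts hold amplification and sequencing errors as well as mutations, and the files give no way to separate them. In VQ-D5, 963 of the 1483 lay in V positions 1 to 45 of members with the upstream stretch. That number was 1 of 75 in VQ-D1, 8 of 39 in VQ-D2 and 0 of 38 in VQ-D4. No substitution below 50% was on 71 of 95 members of VQ-D1 (74.7%), 56 of 74 of VQ-D2 (75.7%), 7 of 14 of VQ-D4 (50%) and 666 of 1153 of VQ-D5 (57.8%). Of the distinct non-fixed substitutions, 65 of 70 for VQ-D1, 29 of 33 for VQ-D2, 38 of 38 for VQ-D4 and 139 of 269 for VQ-D5 were on a single member. A few members held many. In VQ-D1 2 members with over 10 held 40 of the 75, and in VQ-D4 1 member held 27 of the 38.

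**Figure D2:**
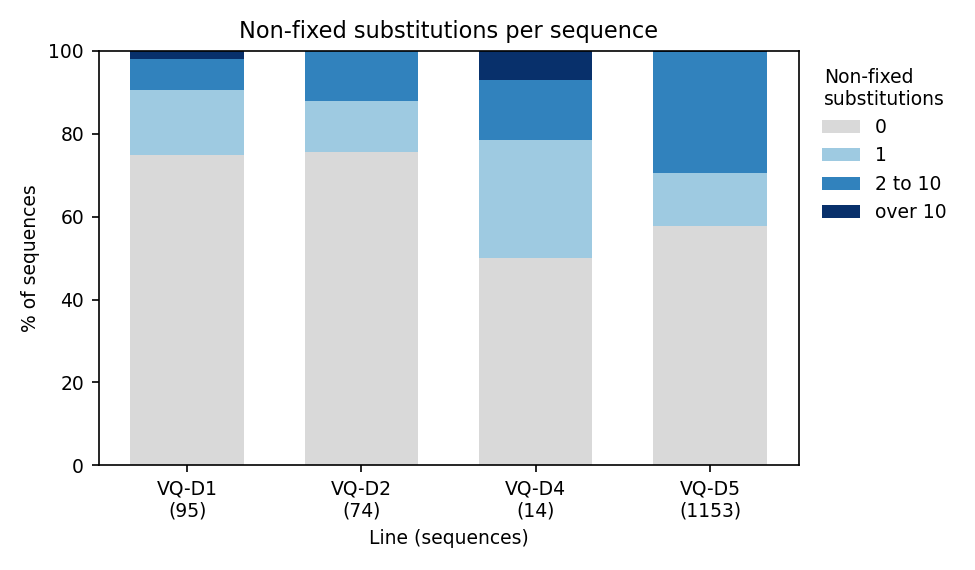
Percent of members (vertical axis) with 0, 1, 2 to 10 or over 10 non-fixed substitutions, stacked, for each line with its number of members. The share with 0 runs from 50% in VQ-D4, with 14 members, to 75.7% in VQ-D2.

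By region, FWR1 of VQ-D5 stood far above the rest of its V, at 21.1 non-fixed substitutions per 1000 bases (1218 in 57702 bases). CDR1 of the same line had 2.60, FWR2 1.19, CDR2 0.909 and FWR3 0.790 per 1000. VQ-D2 had 7.12 per 1000 in FWR1 and 0 to 1.37 elsewhere. In VQ-D1 the highest rate was in CDR1, at 7.80 per 1000 (20 substitutions), of which 17 were on 1 member whose 25 substitutions ran from position 50 to 101. In VQ-D4, 26 of the 27 substitutions in FWR3 were on 1 member.

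**Figure D3:**
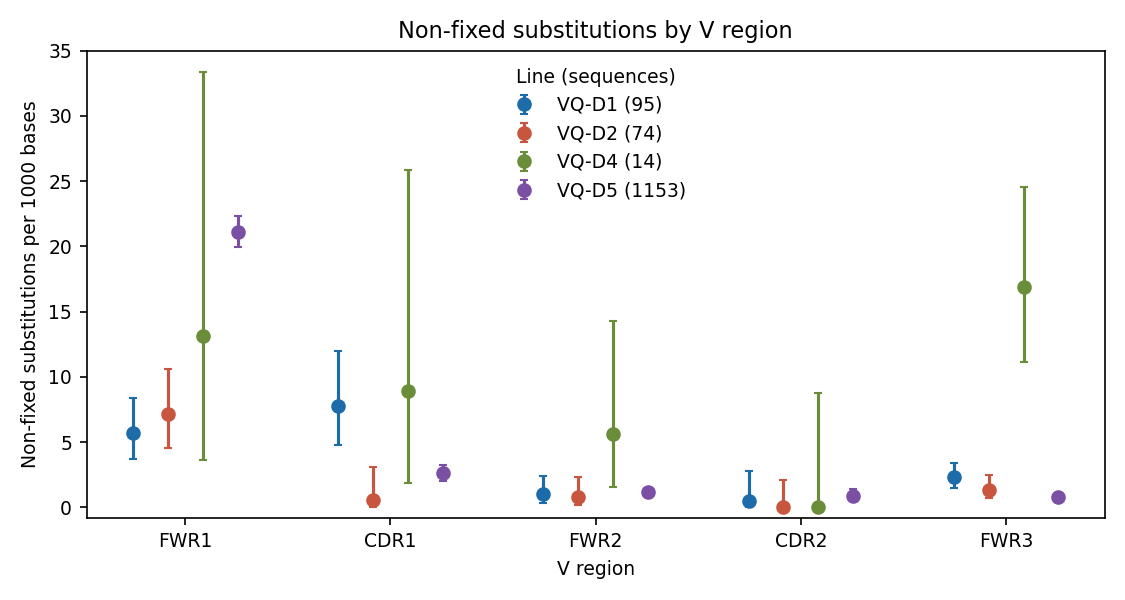
Non-fixed substitutions per 1000 bases (vertical axis) in each V region (horizontal axis), with exact binomial 95% intervals for counting error, for the 4 lines. FWR1 of VQ-D5 lies at 21.1 while its other regions lie at or below 2.60, and the intervals of VQ-D4 are wide.

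Framework and CDR rates were 2.74 and 4.61 per 1000 for VQ-D1, 2.51 and 0.282 for VQ-D2, 13.4 and 3.97 for VQ-D4, and 5.68 and 1.81 for VQ-D5. The CDR minus framework difference was 1.86, -2.22, -9.42 and -3.87 per 1000, with a mean of -3.41 ± 4.67 (SD, n = 4 lines). It was below 0 in 3 of 4 lines and did not pass the exact sign-flip permutation test (p = 0.25, adjusted p = 0.3125). Leaving out VQ-D4 gave a mean of -1.41 and leaving out VQ-D1 gave -5.17. In some lines the difference depended on single members or on the 5′ end. Without members of over 10 non-fixed substitutions VQ-D1 had 1.66 per 1000 in framework and 0.672 in the CDRs, and VQ-D4 3.31 and 4.27. VQ-D2 had 0 such members and was unchanged. Within positions 64 to 252, which every member spans, VQ-D5 had 1.12 in framework and 1.81 in the CDRs. The other lines kept their sign there, with 2.02 and 4.61 for VQ-D1, 1.34 and 0.282 for VQ-D2, and 6.88 and 3.97 for VQ-D4. The mean difference over lines in this window was -0.17 per 1000.

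In FWR1 of VQ-D5 a few positions held most of the non-fixed substitutions. A28G was on 242 of 1080 covering members (22.4%), C31A on 221 of 1108 (19.9%) and G29C on 217 of 1102 (19.7%). The next were C33A (52 members), T35A (37), C41A (20), G36T (18), C60A (16), G36C (15) and C30A (14), all in FWR1. In VQ-D2 2 substitutions were on at least 3 members: C40A on 3 of 59 and T280G on 3 of 72. VQ-D1 had none on at least 1% and 3 members.

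All 242 carriers of A28G had the upstream stretch, among 613 members with the stretch that covered the position, and so did 217 of 217 carriers of G29C and 216 of 221 of C31A. In V positions 1 to 45, members of VQ-D5 with the stretch had 69.3 non-fixed substitutions per 1000 bases and members without it 6.59. From position 46 on the values were 2.31 and 0.822. The same contrast in positions 1 to 45 was 9.69 against 2.86 per 1000 in VQ-D2 and 0.698 against 5.68 in VQ-D1, where the VQ-D2 value without the stretch and both VQ-D1 values rest on 1 substitution each. With the ends kept, 209 members carried A28G, G29C and C31A together, and in all 209 the V alignment started at position 16. The 24 bases ending at position 31 were identical in 203 of them. Set against the germline without gaps, they differed at 13 of 24, counting bases ahead of the V alignment start. The reverse complement of these 24 bases occurred in 249 other sequences among the 17999 distinct ones of VQ-D5. All 249 held it outside the V alignment, which was nearly fixed in advance because that alignment runs in the V direction. The commonest stretches from position 24 to 45 of VQ-D5 are shown for this; the first was on 714 of 1118 members, 275 of them with an upstream stretch, and the second on 148, all with one.
VQ-D5, first: acctagcctcgtgaaaccttct
VQ-D5, second: aActGCcAtcgtgaaaccttct

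**Figure D4:**
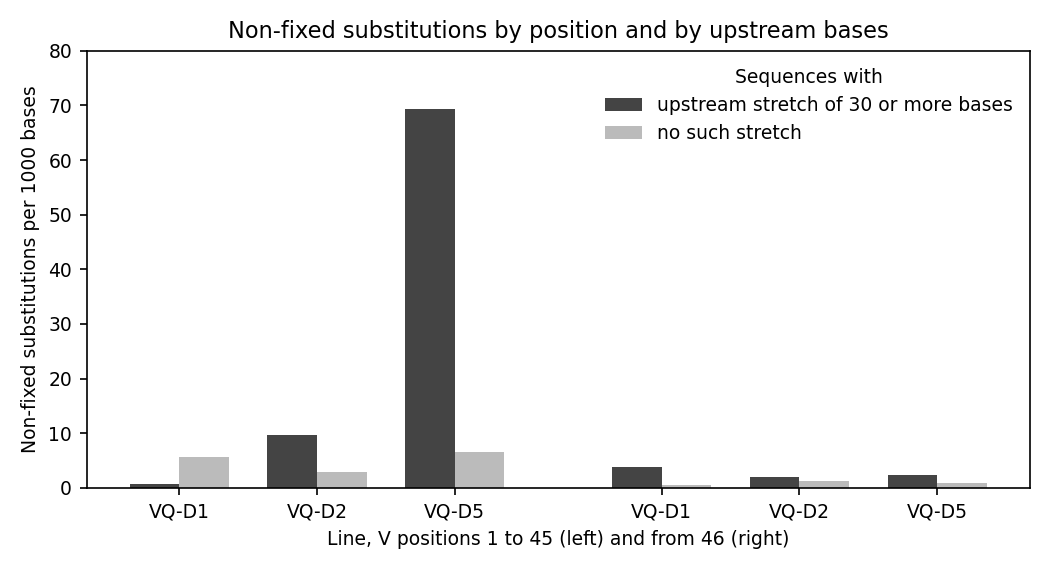
Non-fixed substitutions per 1000 bases (vertical axis) in V positions 1 to 45 (left) and from 46 (right), for members with (dark) and without (light) at least 30 assembled bases ahead of V, in the 3 lines with enough members. In VQ-D5 the bar for positions 1 to 45 is 69.3 with the stretch and 6.59 without.

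The joint haplotypes of VQ-D5 followed the same positions. Over the 20 listed substitutions (6 fixed and 14 partial), 1075 members covered all and formed 50 haplotypes. The fixed set alone was on 764 (71.1%, exact 95% interval 68.3% to 73.8%), and the fixed set with A28G, G29C and C31A on 153 (14.2%, 12.2% to 16.5%). Whether A28G, G29C and C31A are mutations of V was not tested. The fixed set with A28G alone was on 27. The set with A28G, G29C, C31A, C33A and T35A was on 18, and the one that also had G36C, A39G, C40G and C41A on 11. Of 1080 members covering both, A28G and G29C were together on 212, A28G alone was on 30, G29C alone on 5 and neither on 833. By CDR3, A28G was on 239 of the 588 covering members with the leading CDR3 and on 0 of 99 with the second. All 242 carriers of A28G had the upstream stretch. That stretch was on 592 of the 636 members with the leading CDR3 and on 0 of the 103 with the second. CDR3 and stretch therefore cannot be told apart in this contrast.

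Away from the 5′ end most members had the leading sequence of their line, except in VQ-D4. Within positions 64 to 252 the leading sequence was on 79 of 95 members for VQ-D1 (83.2%, 74.1% to 90.1%), 65 of 74 for VQ-D2 (87.8%, 78.2% to 94.3%), 7 of 14 for VQ-D4 and 982 of 1151 for VQ-D5 (85.3%, 83.1% to 87.3%). In VQ-D1, VQ-D2 and VQ-D4 every other sequence of this window was on 1 member. VQ-D5 had 14 others on at least 2 members, 40 members in all, and the most frequent, with C81A, was on 7. The 2 leading CDR3 groups of VQ-D5 shared the fixed set: 631 of 635 and 103 of 103 members carried all 6.

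Replacements made up 78.7% of the non-fixed substitutions for VQ-D1 (59 of 75), 79.5% for VQ-D2 (31 of 39), 84.2% for VQ-D4 (32 of 38) and 78.6% for VQ-D5 (1166 of 1483). Of all single base changes possible in the same codons, 77.3%, 77.8%, 78.2% and 76.8% would replace an amino acid or create a stop codon. Sequences called productive should hold no stop codon, so these expectations are too high for the members, by an amount that was not computed. The differences of 1.38, 1.74, 6.01 and 1.84 percentage points averaged 2.74 ± 2.19 (SD, n = 4 lines) and were above 0 in 4 of 4 lines, and the exact sign-flip permutation test gave the smallest p that 4 lines allow (p = 0.13, adjusted p = 0.3125). Leaving out VQ-D4 the mean was 1.65, and counting each distinct substitution once it was 0.08. The sign was not stable: within positions 64 to 252 the mean was -4.63, and without members of over 10 non-fixed substitutions it was -0.56.

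The difference between CDRs and framework in this share did not exceed the spread of the lines. Relative to its own expectation, the CDR share minus the framework share was 14.1 percentage points for VQ-D1, 13.3 for VQ-D2, 16.1 for VQ-D4 and -9.04 for VQ-D5, with a mean of 8.61 ± 11.8 (SD, n = 4 lines; exact sign-flip permutation p = 0.25, adjusted p = 0.3125). Leaving out VQ-D5 gave a mean of 14.5, and leaving out VQ-D4 gave 6.12. The CDR values of VQ-D1, VQ-D2 and VQ-D4 rest on 21, 1 and 3 substitutions, of which 17 of the 21 were on 1 member, and are too few in the last 2 lines for a share.

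Transitions were fewer than transversions in every line. They made up 24% for VQ-D1 (18 of 75), 7.69% for VQ-D2 (3 of 39), 18.4% for VQ-D4 (7 of 38) and 29.7% for VQ-D5 (441 of 1483), where 33.3% would be transitions if all base changes were equally frequent. The differences of -9.33, -25.6, -14.9 and -3.60 percentage points averaged -13.4 ± 9.39 (SD, n = 4 lines) and were below 0 in 4 of 4 lines, with the smallest p that an exact sign-flip permutation test over 4 lines allows (p = 0.13, adjusted p = 0.3125). C-to-A changes with their complement G-to-T made up 25 of 39 in VQ-D2 (64.1%), 557 of 1483 in VQ-D5 (37.6%), 9 of 38 in VQ-D4 (23.7%) and 15 of 75 in VQ-D1 (20%). In VQ-D5, C31A alone gave 221 of these 557, and A28G alone gave 242 of the 441 transitions. The shares of VQ-D5 thus count the same 5′ substitutions many times. Within positions 64 to 252, without the 5′ end, the mean transition difference was -9.75 percentage points, and without VQ-D4 it was -12.9. It was smaller with sequences of at least 200 V bases (-3.90, p = 0.5 by the exact permutation test), with any row whatever its productive value (-5.77, exact permutation p = 0.25) and with the alignment ends kept (-6.05, exact permutation p = 0.25).

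**Figure D5:**
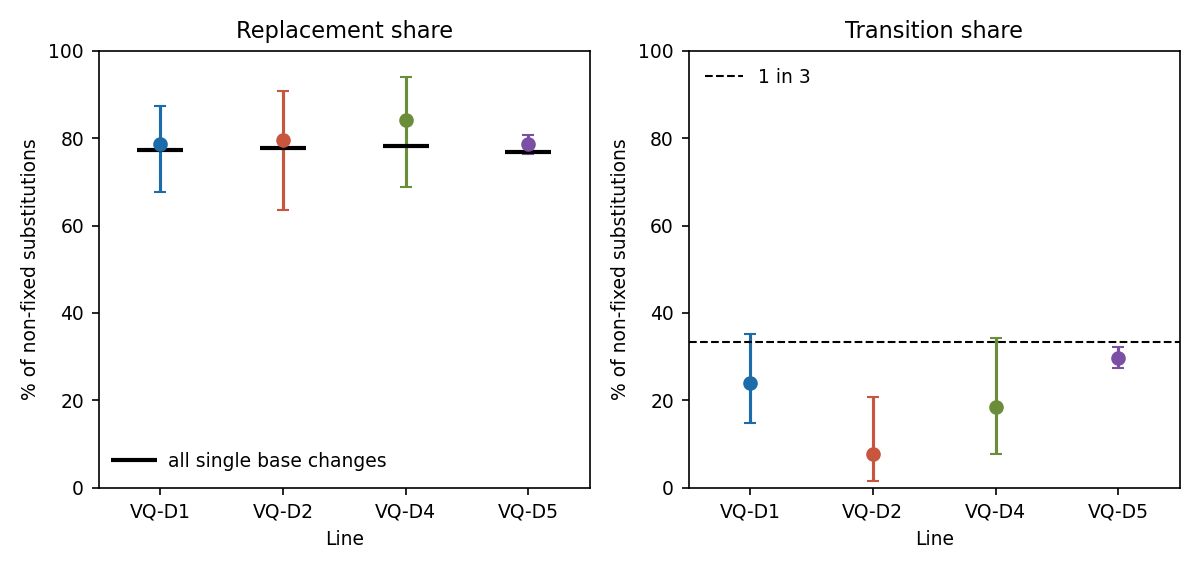
Percent of non-fixed substitutions (vertical axis) that replace an amino acid (left) and that are transitions (right) in each line, with exact 95% binomial intervals for counting error. Black bars mark the share of all possible single base changes that replace an amino acid, changes to stop codons included. The dashed line marks 1 in 3. All 4 replacement values lie above their bars and all 4 transition values below the line.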

How the data were processed

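Heavy chain transcripts were sequenced in 1 library for each of 4 primary lines. Libraries were made from total RNA with molecular identifiers, per the labels' protocols, and mm10 is the build in the submitters' processing notes. The deposited aligned tables hold 1 row per assembled sequence, with V, D and J calls and alignments in the columns that IgBLAST writes and V identity in percent, per the file headers. For the aligner version, the germline set and the read assembly: not given in the sources used here.

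Members were rows called productive with at least 250 V bases that are not gaps, 1 per distinct sequence. Substitutions were counted against the aligned germline V, leaving out the V part of CDR3 and 10 bases from both ends of an alignment. Fixed meant at least 50% of at least 5 covering members, and partial at least 1% and 3 members. Every fixed substitution, the 10 most frequent partial ones, the 5 most frequent haplotypes and the most frequent gene calls were named. Of the other gene calls with at least 1% of a line, only some were named. Other sequences and members were singled out after their values were seen. Expected replacement shares came from all single base changes of the same codons, including changes to stop codons. Lines were compared with exact two-sided sign-flip tests over 16 sign choices, adjusted over 5 tests (Benjamini-Hochberg). With 1 library per line, p-values measure the spread between lines. Intervals are exact and cover counting error only, since amplified copies are not independent molecules. Members, lists and tests were chosen with earlier results of these data known. The counting was tested on simulated data. Scripts ran on Biopython 1.88, matplotlib 3.10.9, scipy 1.17.1, numpy 2.4.6, pandas 2.3.3 and Python 3.11.15. Gene positions are RefSeq's in mm10; 4 of 4 symbols matched. Clone tables and light chain libraries were not used here.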

Additional observations from a re-analysis of the deposited data

Results flagged for a closer look

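With 12 measures compared over the 4 lines, chance sets about 1 in 20 groups apart, and 4 values were set apart, all of VQ-D4, the line with 14 members. Its replacement share among non-fixed substitutions, 84.2%, was the highest, with the next at 79.5%. Its share of members with the leading sequence of positions 64 to 252, 50%, was the lowest, with the next at 83.2%. Its non-fixed rates in FWR2, 5.60 per 1000 bases, and in FWR3, 16.9 per 1000, were the highest, with the next at 1.19 and 2.30. Of its 38 non-fixed substitutions, 27 were on 1 member, 26 of them in FWR3.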

How the results depend on the processing

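Of 81 tested differences recomputed under other settings, 74 kept their sign, but 27 of these 74 changed by over 1.5 times, and 0 had an adjusted p at or under 0.05 by the exact permutation test, which 4 lines could not give. Of 118 other values, 111 stayed within their interval or within 1.5 times. The non-fixed CDR minus framework difference ran from -18.4 (each distinct substitution counted once, per 1000 positions) to -0.17 per 1000 (positions 64 to 252), the replacement share minus expectation fell to 0.08 percentage points with each distinct substitution counted once, and the transition share minus 33.3% shrank to -3.90 at 200 V bases. The CDR minus framework difference of fixed substitutions turned positive within positions 64 to 252 (0.0126 per 100) and ranged from -0.73 to 0.21 with a line left out, the latter without VQ-D1. With a line left out the non-fixed difference ranged from -5.17 to -1.41, the replacement share from 1.65 to 3.19, the CDR minus framework replacement share from 6.12 to 14.5 and the transition share from -16.6 to -9.28. The replacement share minus expectation turned negative with any row whatever its productive value (-0.58 percentage points), with sequences found in at least 2 rows (-6.19, 3 lines), without members of over 10 non-fixed substitutions (-0.56) and within positions 64 to 252 (-4.63). The transition share minus 33.3% turned positive with sequences found in at least 2 rows (4.34, 3 lines). Within positions 64 to 252 VQ-D1 had 2 fixed substitutions, 100% of them transitions, VQ-D2 had 6, and VQ-D5 had 0% transitions among 4, because the window holds fewer positions. The leading haplotype took 100% of VQ-D2 and 75.7% of VQ-D5 when only substitutions on at least 5% of members were listed, and 67.6% of VQ-D5 when every row was counted. The window, the removal of members with many substitutions and 1 row per distinct V alignment were chosen after seeing the data. At 280 V bases VQ-D4 had 0 members, and in at least 2 rows VQ-D1, VQ-D2 and VQ-D4 had 3, 1 and 3, too few to call a fixed substitution. The cause of the other changes was not tested. No paired analysis was possible because heavy and light chain libraries, which share line numbers, were not compared. Depth limits VQ-D4 most, and the 5′ ends in VQ-D2 and VQ-D5 rest on few or joined sequences.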
